A study of Mus musculus with 6 samples.

Results

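Alternative acceptor events are introns that start at 1 donor (5′) splice site and can end at more than 1 acceptor (3′) splice site, so that the next exon is made in a longer or a shorter form. The events described here were the rows of the authors' JuncBASE table classed as alternative acceptors, in which the level of a site was counted from junction reads together with reads inside the stretch of exon that the site adds. This gave 1345 of the 10376 events of the table. The same table lists 1675 alternative acceptor events counted from junction reads only, and those served as the comparison. RNA was sequenced from 6 cultures of bone marrow-derived macrophages, which are grown from marrow in medium conditioned by L929 cells, a fibroblast line that secretes the macrophage growth factor. All came from wild-type C57BL/6 mice and were harvested on day 11, and the donors had breathed cigarette smoke (3 cultures) or room air (3 cultures). The age of the mice and the length and dose of the exposure are not given in the sources used here. The labels number the cultures and do not say outright that each number is another mouse, so the p-values below measure only the spread between these cultures.

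Acceptor choice is made late in spliceosome assembly. The U2AF proteins bind a tract of pyrimidines and the AG dinucleotide at the intron's end, SF1 and later the SF3A and SF3B proteins of the U2 particle hold the branch point upstream, and the AG that is finally joined is picked in the second catalytic step. When AG dinucleotides stand close together they compete, and the AG nearest the branch point, here called proximal, is usually favoured. Acceptors that lie 3 nt apart (tandem acceptors) add or drop a codon's worth of sequence, whereas acceptors far apart can add a whole alternative exon part, a premature stop or, in untranslated exons, regulatory sequence.

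The bases at the sites were read from GENCODE M21 transcripts on GRCm38, which is the same assembly as the mm10 build named in the submitters' processing notes. They could be read only where an annotated transcript covers them. The tandem sites below are shown because their levels are described with the base before each AG. They were picked, after their levels had been seen, from the 27 events at 3 nt with 2 acceptors, a value in all 6 libraries and all 24 bases of the window read. Each line gives 12 bases before the proximal site in lower case, the 3 bases between the sites in capitals, and 9 bases after the distal site in lower case.
Ctnnb1 (chr9:120957107-120957109, plus strand): ttctcctcctagGAGggcgtgcgc
Lrpap1 (chr5:35097687-35097689, minus strand): cttgttccacagAAGgttatgaga
Atp13a2 (chr4:140994312-140994314, plus strand): tctctcacccagAAGcaggtactg
Stab1 (chr14:31143012-31143014, minus strand): catctcctccagAAGacttgcagc
Chd4 (chr6:125120205-125120207, plus strand): cctctgtcccagGAGgaagaggag
Rgs1 (chr1:144246351-144246353, minus strand): ctcttattttagCAGgtcaaaatg
Fcgr3 (chr1:171057946-171057948, minus strand): tctcactctcagCAGctcttccga
Pcbp2 (chr15:102489752-102489754, plus strand): tctgtcttttagCAGgtttggatg
Eif4g1 (chr16:20681734-20681736, plus strand): tcccttgtctagCAGgctggcctg
Map2k2 (chr10:81121043-81121045, plus strand): tgtactgtcaagTAGgtcatggga
Hpgds (chr6:65120089-65120091, minus strand): ttttcctttaagCAGgtaacctgg

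The second set holds sites of events whose acceptors lie far apart, among them 3 RNA-binding proteins and the antiviral nuclease Samhd1, whose levels are described further on. Each line gives 20 bases before the site, with the last 2 of the intron in capitals, and 3 bases of exon.
Srsf5 proximal site: ttaaaccctttatttgccAGcct
Srsf5 distal site: cataattgtcttgtgttaAGgat
Hnrnpdl proximal site: accttgtttgtacccgccAGcgg
Hnrnpdl distal site: gtgtttcgtttttgttttAGgag
Samhd1 distal site: tctctctctctctctaatAGgat
Ddx17 distal site: tctcctcattgacgtggaAGatg

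The 1345 events were spread over 918 host genes and 1109 donor sites, and 262 genes held more than 1 event, led by Srrm1, a splicing coactivator gene, with 8. Of the events, 457 used only junctions marked as known in the table and 888 held a junction not so marked. An event had 2 acceptors in 917 cases and 3 to 7 in the other 428. The counted site was the proximal one in 1055 events (78.4%), a middle one in 158 and the distal one in 132. This distinction matters for direction. Only where the proximal site was counted can a lower level mean less use of it, and a longer exon less often. Even there it need not mean this, because reads inside the added stretch of exon also enter the level. Rows of 1 donor share reads and are not independent of each other. A gene symbol was found for 1329 events, and 76 events overlapped more than 1 gene on their strand, so that their reads are uncertain in origin.

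The distance between the competing sites had a median of 28 nt, with quartiles of 4 and 145 nt and a range from 1 to 56050 nt. The commonest distance was 3 nt, with 290 events (21.6%), against 13 events at 2 nt, 42 at 4 nt, 46 at 5 nt and 34 at 6 nt. At the other end, 306 events (22.7%) had sites more than 200 nt apart. The bases between the sites, called the extension here, were annotated as coding in 838 events, as UTR in 128, as exon of non-coding transcripts in 169 and as no exon in 210. Among events with a coding extension 61.3% of distances were multiples of 3, and 45.9% when those of exactly 3 nt were left out. With a UTR extension the share was 35.2%, and 24.5% without those of 3 nt. Extensions in no annotated exon had 46.7%, and 41.7% without those of 3 nt, which is close to the coding share, and those in non-coding exons had 35.5% and 29.2%. Within the coding ones the share was 31.5% in the 89 events over 200 nt. Extensions that no annotated exon covers had a median of 168.5 nt and those in non-coding exons 187 nt, against 17.5 nt for coding ones.

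**Figure D1:**
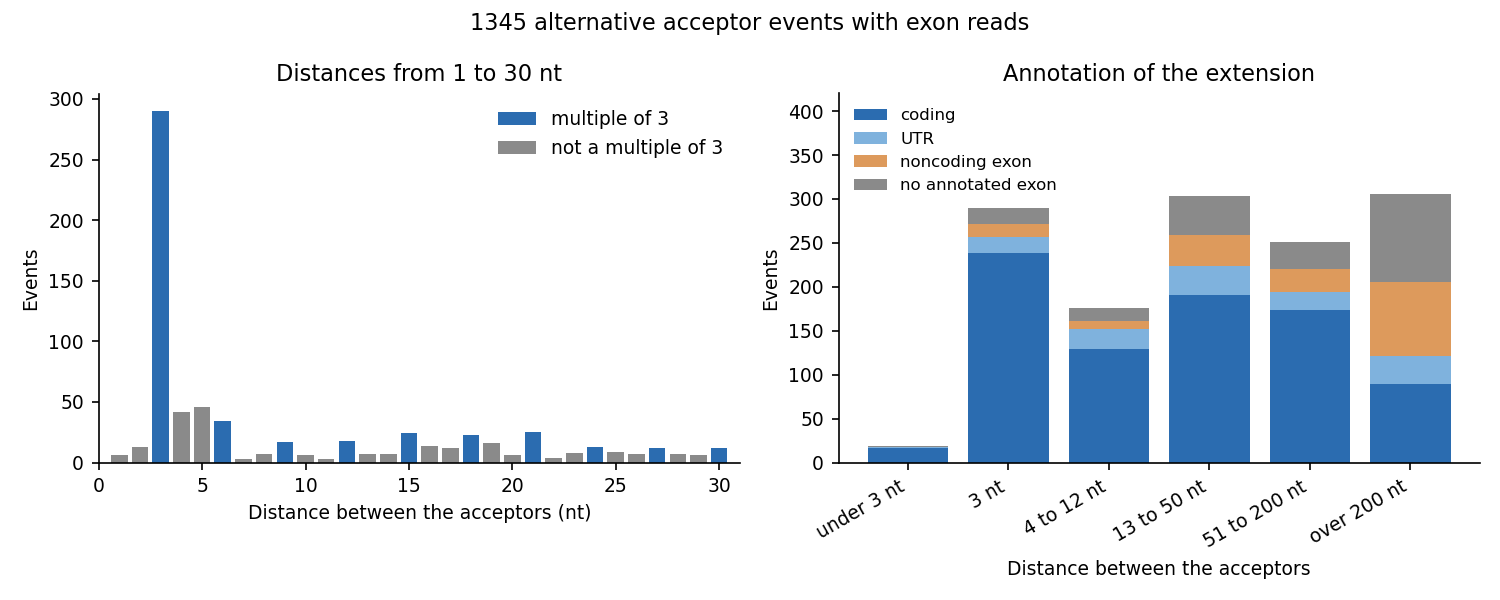
Number of events at each distance from 1 to 30 nt (left, bars for multiples of 3 in blue and others in grey) and number of events per distance class by the annotation of the bases between the sites (right). The bar at 3 nt holds 290 events, and extensions without an annotated exon or in non-coding exons are most numerous over 200 nt.

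Splice site sequence was a property that did not choose the events. The distal site could be read in 1052 events and ended in AG in 99.5%, with CAG in 67.7%, TAG in 16.0%, AAG in 13.2% and GAG in 2.66%. The proximal site could be read in 479 and ended in AG in 97.9%, with CAG in 59.5%, TAG in 23.0%, AAG in 14.0% and GAG in 1.46%. Over the 17 bases before the AG the median share of C and T was 70.6% at both sites. Reading needs an annotated transcript across the site, so these shares describe the better annotated sites.

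In the tandem acceptors the median level of the proximal site differed with the base that stood before the distal AG. Among the 216 events at 3 nt with 2 acceptors, the median level of the proximal site was 68.7%, with quartiles of 23.6% and 92.1%. It was 49.9% in 123 events whose extension read CAG, 77.3% in 21 with TAG, 95% in 50 with AAG and 97.0% in 11 with GAG. The ranges overlapped widely: levels ran from 2.06% to 98.8% with CAG, from 2.57% to 97.8% with TAG, from 6.74% to 98.8% with AAG and from 35.8% to 99.2% with GAG. Where both sites could be read, 6 events with AAG followed by TAG had a median of 21.5%, 15 with CAG followed by CAG 26.8%, 8 with TAG followed by CAG 41.2% and 7 with CAG followed by AAG 89.7%. These are descriptions over events of the same 6 libraries, with no test.

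Single genes show the spread. In Ctnnb1, which encodes β-catenin, the proximal site stood at 100% in the 3 room air libraries and at 100%, 95% and 100% in smoke replicates 1, 2 and 3. Lrpap1, a chaperone of LDL receptor family proteins, gave 88.9%, 100% and 95% in room air and 96.2%, 100% and 96.4% after smoke. Stab1, a scavenger receptor of macrophages, gave 92.6%, 89.6% and 93.8% in room air and 90%, 78.6% and 93.5% after smoke. Atp13a2, a lysosomal transport ATPase, gave 88.9%, 92.7% and 85% in room air and 100%, 94.4% and 83.3% after smoke. Chd4, a chromatin remodeller, gave 84.6%, 82.4% and 91.7% in room air and 85.7%, 73.7% and 82.6% after smoke. All of these have GAG or AAG as the distal triplet, and in each the proximal site took most of the reads in every library.

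With CAG as the distal triplet the levels ran from high to low. Rgs1, a regulator of G protein signalling, gave 86.4%, 90.9% and 86.2% in room air and 92.3%, 89.5% and 94.7% after smoke. Eif4g1, the scaffold of the translation initiation complex, gave 18.2%, 14.9% and 22.7% in room air and 14.3%, 20% and 18% after smoke. Its proximal and distal triplets are the same as those of Rgs1, and the levels of these genes differed by far more than the spread between libraries of either. The prostaglandin D synthase gene Hpgds, whose proximal triplet is AAG, gave 8.26%, 11.4% and 10.6% in room air and 8.11%, 6.25% and 7.26% after smoke.

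Fcgr3, a low-affinity receptor for IgG that macrophages use to take up coated particles, gave 81.6%, 76.5% and 85.3% in room air and 66.7%, 79.1% and 76.8% after smoke, with overlapping groups (limma, adjusted p = 0.623). The kinase gene Map2k2 gave 26.8%, 18.6% and 20.4% in room air and 10.5%, 12.5% and 18.4% after smoke, with every smoke value below the room air values. By the level with exon reads, the tandem events nearest to an even split were those of Cap1, Pcbp2, Nars and Cic. From junction reads only, their room air means were 69.0%, 68.7%, 71.6% and 62.3%, in that order. Their smoke means from junction reads only were 65.7%, 66.6%, 66.3% and 65.2%. Cap1, which binds actin, gave 52.9%, 52.5% and 53.2% in room air and 51.2%, 45.7% and 49.7% after smoke (limma, adjusted p = 0.811), and the groups did not overlap. Pcbp2, a poly(C)-binding protein, gave 52.7%, 54.1% and 52.5% in room air and 50%, 46.1% and 53.9% after smoke, and the groups overlapped (limma, adjusted p = 0.860). Nars, an asparaginyl-tRNA synthetase, had a room air mean of 55.7% ± 3.24 and a smoke mean of 49.4% ± 3.63 (SD, n = 3 each), and Cic, a transcriptional repressor, 45.8% ± 1.98 and 47.6% ± 5.83 (SD, n = 3 each).

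The comparison of the groups asks whether exposure of the animal to smoke left a difference in acceptor use in macrophages grown from its marrow. A value in all 6 libraries was present in 784 events (58.3%). Smoke replicate 1 lacked a value in 533 events, and the other libraries in 0 to 33. The limma test on log2 odds of the level, fitted over all 10376 events, called 0 of the 1345 events at an adjusted p under 0.05 (0%, and 0% of all events, lowest adjusted p 0.128). At an unadjusted p under 0.05, 81 events (6.02%) were lower after smoke and 21 (1.56%) higher, against 9.29% and 1.55% of all events of the table. Retained introns weigh on the background of the table, with 20.8% of their 3305 rows lower and 0.121% higher. In the 7071 other events, which include these acceptors, 3.93% were lower and 2.22% higher, so the acceptors' lower share was below that of the whole table and above that of the events other than retained introns. Junction-only acceptors had 2.75% lower and 1.97% higher. By the counted site, the shares were 7.11% lower and 0.284% higher for the proximal site, 1.27% and 5.7% for a middle site, and 3.03% and 6.82% for the distal site. Leaving out smoke replicate 3 moved the count of calls to 114 (8.58%, against 10.4% of all events), and in 106 of these (93.0%) all values of 1 group stood at 0% or at 100%. It also moved the unadjusted counts to 219 lower and 71 higher, while leaving out room air replicate 2 gave 50 and 11 and leaving out room air replicate 3 gave 13 higher.

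Over the 784 events room air replicates 1, 2 and 3 had mean levels of 47.5%, 47.9% and 47.4%, and smoke replicates 1, 2 and 3 of 46.4%, 46.8% and 46.9%. Every smoke library lay below every room air library, by 0.91 percentage points between the group means. The same held over all 5933 events of the table with 6 values, where the difference was larger, at -1.70 percentage points, and 67.3% of events had a lower mean after smoke. Without the retained introns, of which 92.5% had a lower mean with a difference of -4.23 points, the other 3941 events differed by -0.43 points and 54.6% were lower. Among the acceptor events the direction depended on which site was counted. Where it was the proximal site (590 events), the mean was 47.7% ± 0.462 in room air and 46.0% ± 0.530 after smoke (SD, n = 3 each), and 395 events (66.9%) had a lower mean after smoke. That share is close to the one over the whole table and above the one without retained introns. Where it was the distal site (90 events), the means were 41.9% ± 0.587 and 43.5% ± 1.08 (SD, n = 3 each), every smoke library was above every room air library, and 60 events had a higher mean. For a middle site (104 events) they were 52.3% ± 0.736 and 53.4% ± 0.667 (SD, n = 3 each), and the libraries of the groups overlapped.

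Events whose 3 smoke values all lay on the same side of the 3 room air values showed the same split. Over all 784 events, 114 (14.5%) lay apart with smoke lower and 41 (5.23%) with smoke higher, against 19.3% and 3.84% of all events of the table with 6 values, 9.46% and 5.66% of those other than retained introns, and 38.7% and 0.251% of retained introns. With the proximal site counted these numbers were 101 (17.1%) and 8 (1.36%), with a middle site 6 (5.77%) and 18 (17.3%), and with the distal site 7 (7.78%) and 15 (16.7%). Leaving out any 1 library asks less of an event, and the counts for the proximal site then ran from 114 to 165 lower and from 15 to 41 higher, the highest without smoke replicate 3. For a middle site they ran from 7 to 13 lower and from 20 to 26 higher, and for the distal site from 9 to 12 lower and from 16 to 25 higher. No single event can reach an exact permutation p below 0.1 with 3 libraries against 3.

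For the proximal site the difference was largest over 200 nt. In the 149 proximal-site events over 200 nt room air replicates 1, 2 and 3 had means of 25.4%, 26.3% and 24.6%, and smoke replicates 1, 2 and 3 of 20%, 21.7% and 22.7%. All smoke libraries were below all room air libraries, by 3.96 percentage points between the group means, and 131 of the 149 events (87.9%) had a lower mean after smoke. Leaving out each library in turn kept this share between 83.9% and 91.3%. In the 127 events at 3 nt the difference was -0.35 percentage points with overlapping libraries, and 71 were lower and 56 higher. The classes between gave -0.96 (4 to 12 nt), -1.33 (13 to 50 nt) and -0.79 (51 to 200 nt) percentage points, and of these the last had overlapping libraries.

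**Figure D2:**
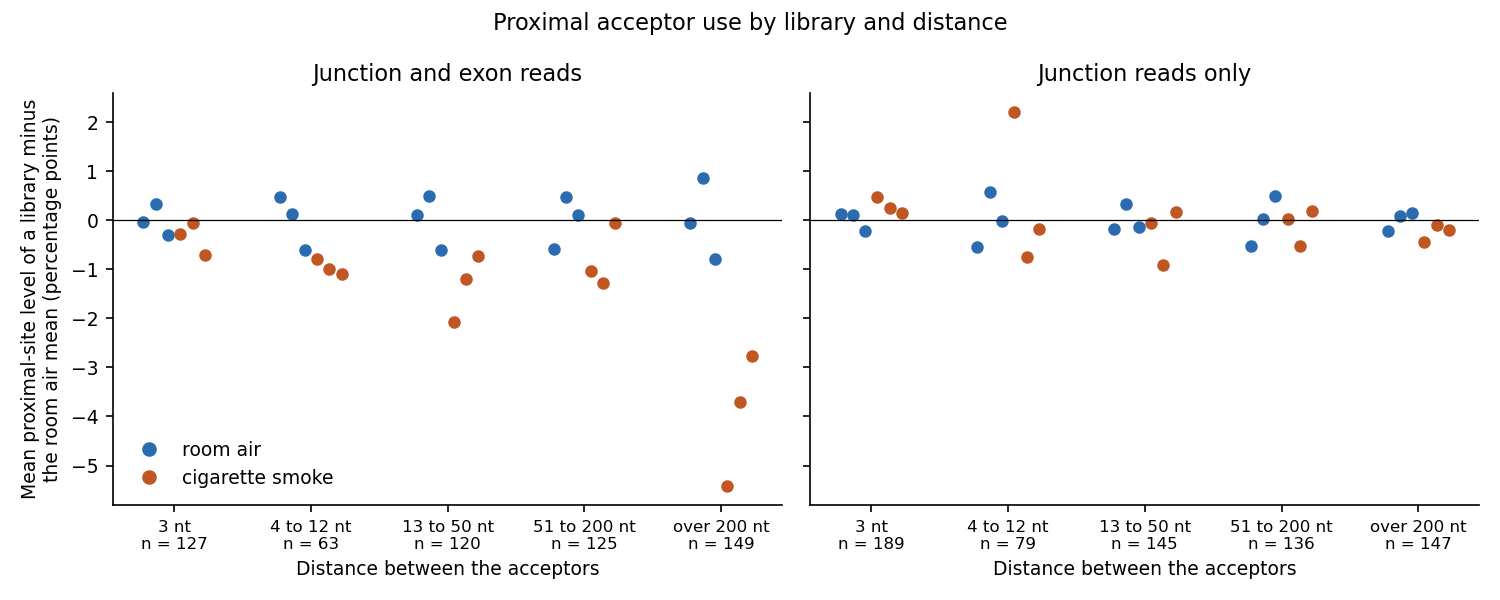
Mean level of the proximal site in each library minus the room air mean, in percentage points, by distance between the acceptors, over events with a value in all 6 libraries (1 point per library, room air blue, cigarette smoke orange). Over 200 nt the smoke libraries lie below all room air libraries with exon reads (left), 3.96 points lower on average, and with junction reads only (right) the group means differ by -0.25 points.

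With the proximal site counted and over 200 nt, the mean was lower after smoke for each annotation of the extension, and no difference between the annotations was tested. The events whose extension lies in no annotated exon had means of 9.59% ± 0.658 in room air and 5.32% ± 1.42 after smoke (SD, n = 3 each), and 50 of 51 were lower. Those with an extension in a non-coding exon had 12.7% ± 1.10 and 8.31% ± 1.15, and 36 of 38 were lower. UTR extensions had 37.1% ± 0.611 and 32.5% ± 1.61, and 13 of 16 were lower. Coding extensions of that length had 50.5% ± 0.969 and 47.5% ± 1.42, and 32 of 44 were lower (SD, n = 3 each). Split by the table's own mark, the difference was -3.47 percentage points in 41 events of known junctions and -4.15 in 108 with a junction not marked as known. The counts were farther apart, with 70.7% of the 41 and 94.4% of the 108 lower, with groups apart and smoke lower in 6 (14.6%) and 52 (48.1%), and with smoke higher in 1 and 0. Beside the 19.3% of all events and 9.46% of those other than retained introns that lay apart with smoke lower, the known junctions were between these shares and the others above both. The difference between the known and the other junctions was not tested.

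Events counted from junction reads only did not show this difference at that distance. Over 200 nt, 147 such events of the proximal site had means of 31.7% ± 0.196 in room air and 31.5% ± 0.171 after smoke (SD, n = 3 each), with 74 lower and 73 higher. Of all junction-only events with 6 values, 5.35% lay apart with smoke lower and 5.04% with smoke higher. These shares were 5.11% and 4.97% for the proximal, 5.44% and 6.12% for a middle and 6.86% and 3.92% for the distal site. The 2 kinds of row come from the same libraries and share junction reads.

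The same event was often listed both ways. This held for 795 events, 59.1% of those with exon reads and 47.5% of the junction-only ones. In 51 of them over 200 nt with the proximal site counted and all values present, the level with exon reads was 28.2% ± 0.921 in room air and 24.7% ± 1.39 after smoke, and 41 were lower. The same 51 events from junction reads only gave 21.5% ± 0.253 and 21.2% ± 0.726, and 26 were lower (SD, n = 3 each). The difference with exon reads was below that from junctions in 42 of the 51 (82.4%). At 3 nt this held for 62 of 95 (65.3%), with differences of -0.37 and 0.09 percentage points. The difference between the measures was also tested event by event with limma on the difference of their log2 odds. It called 0 of 795 events (0%, lowest adjusted p 0.242), and at an unadjusted p under 0.05 it found 32 (4.03%) with the lower and 15 (1.89%) with the higher smoke effect when exon reads were counted. With the proximal site counted these shares were 4.96% and 0.8%, and over 200 nt 9.35% and 1.87%.

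**Figure D3:**
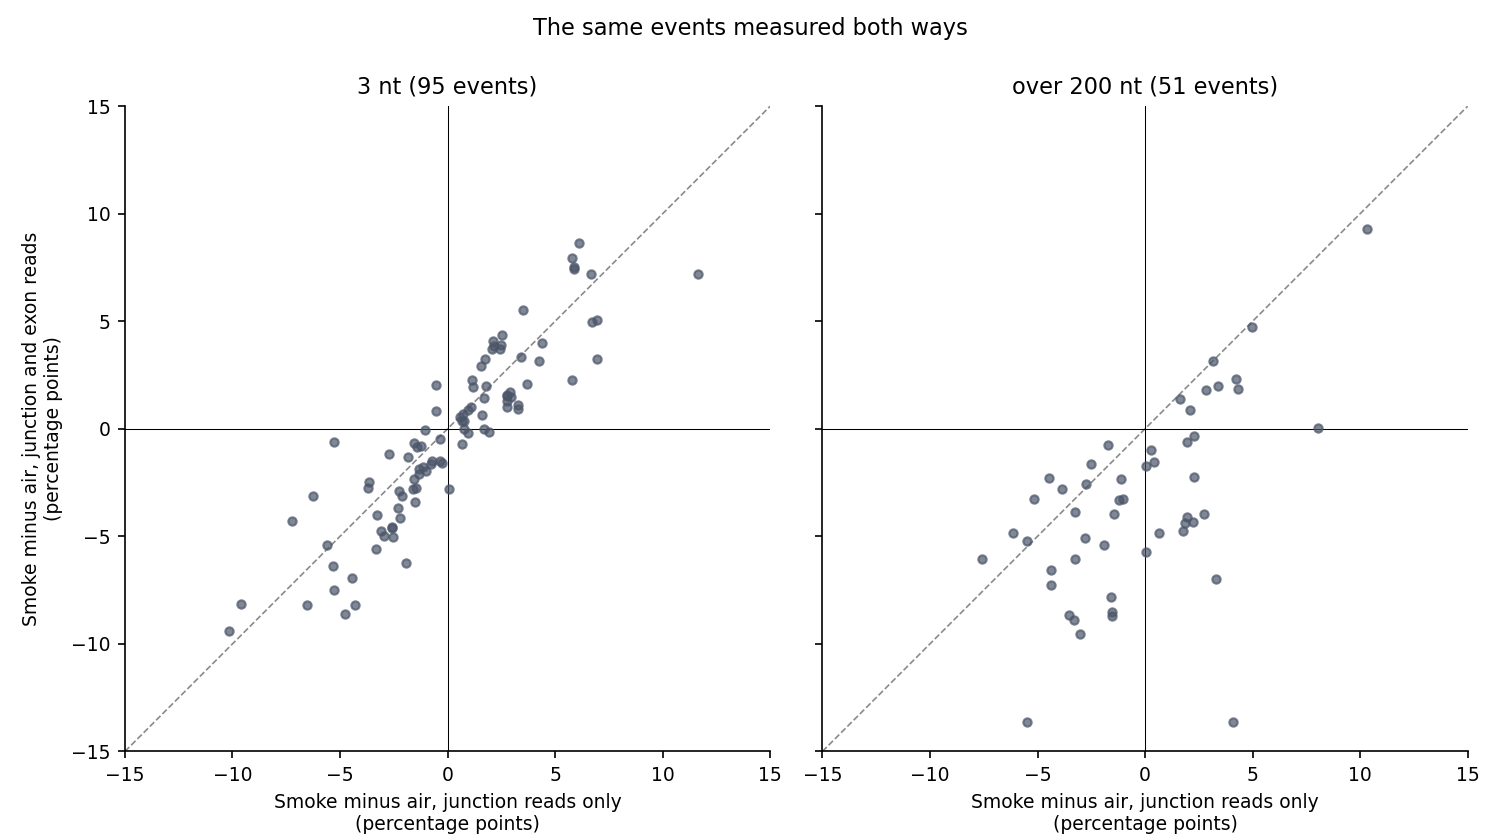
Smoke minus room air for the same events measured with exon reads (vertical axis) and from junction reads only (horizontal axis), in percentage points, for events at 3 nt (95, left) and over 200 nt (51, right) with the proximal site counted, 1 point per event and the dashed line marking equality. Over 200 nt 42 of 51 points lie below the line.

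The level itself also moved with the reads counted. At 3 nt the exon-read level was below the junction-only level in 94 of 95 shared events, with medians of 43.8% and 55.5%. Over 200 nt it was above in 42 of 51, with medians of 11.8% and 5.77%. Levels of the 2 kinds of row are therefore on different scales.

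Reads inside a long extension can also come from an intron that is retained whole. Of the 590 proximal-site events, 144 had the intron that ends at the distal site listed in the same table as a retained intron. In those 144 the proximal-site level was lower after smoke in 122 (84.7%), the retention of that intron in 135, and both in 121. In the 446 without such a row it was lower in 273 (61.2%). Over 200 nt it was lower in 53 of 55 with and in 78 of 94 without the row. The 2 rows share reads of the same bases, and the part of retention in the acceptor levels was not tested.

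**Figure D4:**
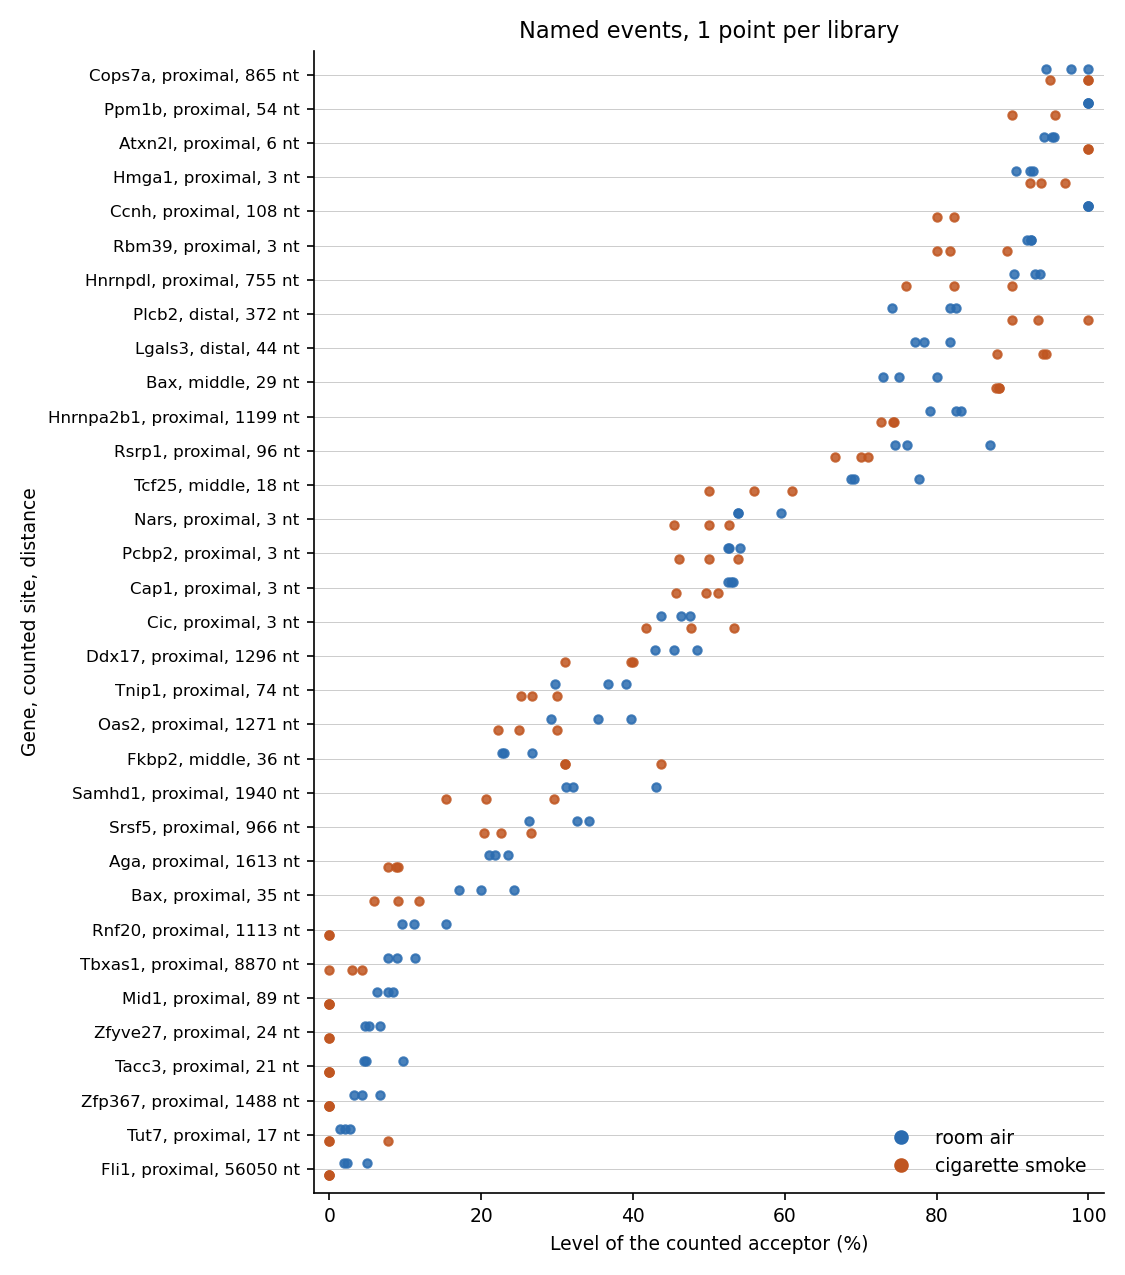
Level of the counted acceptor in percent for each named event, 1 point per library (room air blue and above, cigarette smoke orange and below; a library without a value has no point), ordered by mean level, with the gene, the counted site and the distance between the sites. The values range from 0% to 100%, and most of the named events with the proximal site counted have the orange points to the left.

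The lowest p-values came mostly from events with a low level in room air and a level of 0% in every smoke library with a value. Mid1, a microtubule-associated ubiquitin ligase, had an unannotated proximal site 89 nt before the annotated one (extension chrX:169984910-169984998, plus strand) at 6.25%, 7.69% and 8.33% in room air and at 0% in each smoke library (limma, adjusted p = 0.128). From junction reads only, the same site of Mid1 gave 0%, 7.69% and 0% in room air and 6.25%, 0% and 0% after smoke. Tacc3, a mitotic spindle protein, had an annotated proximal site 21 nt before the distal one (chr5:33667043-33667063, plus strand, coding) at 4.88%, 9.76% and 4.62% in room air and at 0% after smoke (limma, adjusted p = 0.155). Its distal site reads cccatctctccaactctcAGttt. The reads behind each level are not in the table, so how many reads a level of 0% leaves room for is unknown.

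Sites in no annotated exon gave similar rows in Rnf20, Zfp367 and Zfyve27. Rnf20, which ubiquitylates histone H2B, had a site 1113 nt upstream at 15.4%, 11.1% and 9.52% in room air and at 0% in smoke replicates 2 and 3, with no value in replicate 1 (limma, adjusted p = 0.155). The zinc finger gene Zfp367, at 1488 nt, had 6.67%, 4.35% and 3.23% in room air and 0% in each smoke library (limma, adjusted p = 0.155). The Zfp367 site from junction reads only was at 0% in every room air library and at 0%, 0% and 5.26% after smoke. Zfyve27, which encodes protrudin, at 24 nt, had 5.26%, 4.76% and 6.67% in room air and 0% in smoke replicates 2 and 3, again with no value in replicate 1 (limma, adjusted p = 0.177). Junction reads alone put the Zfyve27 site at 5.26%, 9.09% and 6.67% in room air and again at 0% in smoke replicates 2 and 3. For Rnf20 they gave 8.33%, 0% and 0% in room air and 0% in both smoke replicates with a value.

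At the top of the scale, Ccnh, the cyclin of the CDK-activating kinase, had its annotated proximal site (extension of 108 coding bases, chr13:85202333-85202440, plus strand) at 100% in all room air libraries and at 80% and 82.4% in smoke replicates 2 and 3, with no value in replicate 1 (limma, adjusted p = 0.128). Its distal site reads ttttatacacaccttcacAGatt. The phosphatase gene Ppm1b, at 54 nt, went from 100% in all room air libraries to 90% and 95.7% in the same smoke libraries (limma, adjusted p = 0.177). Junction reads alone gave the Ppm1b site 100% in all room air libraries and 91.7% and 96.9% in those smoke libraries. Atxn2l, which encodes an RNA-binding protein of stress granules, was the one row of the 8 with the lowest p in which the level was higher, with 94.1%, 95.5% and 95.2% in room air and 100% in smoke replicates 2 and 3 (6 nt, limma, adjusted p = 0.177). None of these passed the test across all events.

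Among events with a value in all 6 libraries, the largest differences between groups that did not overlap were found at higher levels. Samhd1 encodes a nuclease of deoxynucleotide pools that restricts viruses in myeloid cells. Its proximal site, 1940 nt before the distal one (chr2:157099504-157101443, minus strand, coding in an annotated transcript), gave 32.0%, 43.1% and 31.2% in room air and 15.4%, 20.6% and 29.6% after smoke (limma, adjusted p = 0.524). From junction reads only the same Samhd1 event gave 49.0%, 54.8% and 54.5% in room air and 42.1%, 42.5% and 57.3% after smoke, where the groups overlapped. The lysosomal hydrolase gene Aga had an unannotated site 1613 nt upstream at 23.5%, 21.9% and 21.1% in room air and 9.09%, 7.69% and 8.82% after smoke, with no overlap (limma, adjusted p = 0.275). From junction reads only, that site of Aga was at 0% in the 3 room air libraries and at 9.09%, 0% and 3.12% after smoke.

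Several of the named genes had 3 or more acceptors, and for Bax a lower and a higher row are given. Levels of rows from 1 donor are shares of overlapping reads, so opposite directions are partly built in. Bax, a pro-apoptotic protein of the mitochondrial membrane, had its proximal site at 20%, 24.3% and 17.1% in room air and 5.88%, 9.09% and 11.8% after smoke (limma, adjusted p = 0.407). A middle site of Bax, 35 nt farther on, stood at 75%, 73% and 80% in room air and 88.2%, 87.9% and 88.2% after smoke (limma, adjusted p = 0.413). Both Bax rows overlap another gene on the strand. Lgals3, which encodes the macrophage lectin galectin-3, had its distal site (UTR, 44 nt) at 81.8%, 77.2% and 78.4% in room air and 94.5%, 94.1% and 88.0% after smoke (limma, adjusted p = 0.338). That site of Lgals3 reads ctttggcttttctctcttAGgaa. The phospholipase gene Plcb2 had its distal site, 372 nt beyond the next, at 81.8%, 82.5% and 74.2% in room air and 100%, 93.3% and 90% after smoke (limma, adjusted p = 0.422).

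In Fkbp2, a prolyl isomerase of the endoplasmic reticulum, a middle site gave 22.7%, 26.7% and 23.1% in room air and 43.8%, 31% and 31.1% after smoke (limma, adjusted p = 0.541). The Fkbp2 groups overlapped from junction reads only, with 28%, 16% and 25.64% in room air and 40%, 25.93% and 29.55% after smoke. Tcf25, a factor of ribosome quality control, had a middle site in the UTR at 68.8%, 77.6% and 69.1% in room air and 50%, 56% and 61.0% after smoke (limma, adjusted p = 0.478), and this row overlaps another gene on the strand. The Tcf25 groups also lay apart from junction reads alone, with 61.1%, 68.4% and 63.8% in room air and 56%, 50% and 55.2% after smoke. The scavenger receptor gene Cd36 had a middle site in its UTR at 94.6%, 97.1% and 98.3% in room air and 100% throughout after smoke, and the distal site 4 nt on at 5.41%, 2.94% and 1.68% in room air and 0% after smoke (limma, adjusted p = 0.215 for both rows, which are complements).

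Genes of the splicing machinery were themselves hosts of such events. Of the 73 genes on the splicing factor list, 23 held 35 events, of which 20 had a value in all libraries. In these 12 had a lower and 8 a higher mean after smoke, and their median difference was -3.60 percentage points, beside 465 lower and 319 higher with a median of -1 over all 784 and a median of -1.95 over all events of the table. Groups lay apart in 5 lower and 2 higher of the 20. These shares were 14.5% and 5.23% of the 784, 19.3% and 3.84% over the table, and 9.46% and 5.66% without retained introns. None was called. In expression, 13 of the 73 genes were called lower and 2 higher in the authors' deposited table, beside 3.53% and 4.15% of all genes there.

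Rbm39, a splicing factor related to U2AF, had a tandem site at 92.5%, 92.5% and 91.9% in room air and 81.8%, 80% and 89.2% after smoke (3 nt, limma, adjusted p = 0.476), with every smoke value below. From junction reads only the order was the same, with 96.1%, 96.1% and 95.8% in room air and 90.5%, 88.9% and 94.4% after smoke for Rbm39. Hnrnpdl, an hnRNP, had its proximal site in the UTR at 93.0%, 93.7% and 90.2% in room air and 90%, 76% and 82.3% after smoke (755 nt, chr5:100034985-100035739, minus strand, limma, adjusted p = 0.479). Junction reads alone kept the Hnrnpdl groups apart, with 84.2%, 87.9% and 80% in room air and 71.4% and 75.9% in smoke replicates 2 and 3. Hnrnpa2b1, another hnRNP, gave 79.2%, 83.2% and 82.5% in room air and 74.4%, 74.3% and 72.7% after smoke at its proximal site in the UTR (1199 nt, limma, adjusted p = 0.549). The groups of this Hnrnpa2b1 event overlapped from junction reads only, with 82.9%, 84.7% and 86% in room air and 82.9%, 85.1% and 80.9% after smoke. With exon reads, at the distal site of the same Hnrnpa2b1 intron, the values were 18.4%, 13.5% and 15.1% in room air and 20.5%, 22.9% and 24.4% after smoke.

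Srsf5, an SR protein, gave 34.2%, 32.6% and 26.3% in room air and 22.6%, 20.4% and 26.6% after smoke at a proximal site 966 nt upstream, whose extension belongs to a non-coding transcript (chr12:80948129-80949094, plus strand, limma, adjusted p = 0.620). The groups overlapped by the highest smoke and the lowest room air library. Ddx17, an RNA helicase, gave 42.9%, 48.4% and 45.5% in room air and 40%, 31% and 39.7% after smoke (1296 nt, chr15:79531915-79533210, minus strand, limma, adjusted p = 0.623). From junction reads only the Ddx17 site stood much lower, at 9.09%, 4.35% and 5.26% in room air and 0%, 0% and 8.14% after smoke. In the other direction, Hnrnpk had a proximal site 60 nt upstream at 43.6%, 42.9% and 43.7% in room air and 53.6%, 51.7% and 47.2% after smoke (limma, adjusted p = 0.663), in a row that overlaps another gene on the strand.

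A fixed list headed acceptor recognition, which also holds Hnrnpc and Dhx15, had 13 genes, of which 6 held 11 events. Of those with 6 values 4 had a lower and 1 a higher mean after smoke. The share lower was 59.3% of the 784 acceptor events, 67.3% over the table and 54.6% without retained introns. U2af2, the large subunit of U2AF, had a proximal site 711 nt upstream in the UTR at 9.84%, 15.1% and 8.54% in room air and 3.33%, 4.26% and 9.17% after smoke (limma, adjusted p = 0.524), with overlap. Sf1, the branch point protein, had a site 5 nt upstream at 80%, 84.1% and 83.9% in room air and 75%, 79.0% and 80.8% after smoke (limma, adjusted p = 0.673), with overlap. Another Sf1 site, 21 nt upstream, went the other way, with 93.1%, 93.6% and 90.2% in room air and 100%, 95% and 92.7% after smoke, also with overlap (limma, adjusted p = 0.559). In expression, per the authors' deposited table, Sf3a2 was higher with a log2 fold change of 0.56 and Puf60 with 0.38, and Sf3b1 lower with -0.33, and the other 10 of the 13 had an adjusted p of at least 0.05 in that table, where 4.15% of all genes were called higher and 3.53% lower.

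Innate sensing and signalling genes held 16 events in 14 of 65 genes. In the 12 with 6 values, 10 had a lower and 2 a higher mean, with a median difference of -3.26 percentage points, and groups lay apart in 2, both lower and both at unannotated sites. Over all events with 6 values 67.3% had a lower mean and 19.3% lay apart with smoke lower, and without retained introns these shares were 54.6% and 9.46%. Of the 784 acceptor events they were 59.3% and 14.5%. The 2 events were Aim2, the cytosolic DNA sensor (1103 nt, 11.4%, 6.17% and 6.58% in room air and 0%, 3.45% and 3.57% after smoke, limma, adjusted p = 0.465), and the kinase gene Ikbke (1232 nt, 3.92%, 3.61% and 5.17% in room air and 0%, 0% and 2.38% after smoke, limma, adjusted p = 0.371). Tnip1, an inhibitor of NF-κB signalling, had an annotated proximal site 74 nt upstream at 39.1%, 29.7% and 36.7% in room air and 30%, 26.7% and 25.3% after smoke, with overlap (limma, adjusted p = 0.623). Of the interferon-stimulated list of 34 genes, 4 held 5 events. Of the 4 with 6 values 3 had a lower and 1 a higher mean, with a median difference of -6.11 percentage points, and groups lay apart with smoke lower in Samhd1, given above, and at a middle site of Sp100, a nuclear body protein named after its values were seen (22.2%, 20.8% and 19.6% in room air and 18.2%, 19.1% and 15.9% after smoke, limma, adjusted p = 0.763). Oas2, an antiviral 2′-5′ oligoadenylate synthetase, gave 29.3%, 39.7% and 35.4% in room air and 30%, 22.2% and 25% after smoke at a site 1271 nt upstream, with overlap (limma, adjusted p = 0.602). Junction reads alone gave the Oas2 site 14.7%, 19.6% and 22.5% in room air and 6.67% and 7.69% in smoke replicates 2 and 3, with no overlap and no value in replicate 1. The list of 20 inflammatory genes, such as cytokines and chemokines, held 0 events, and the lysosome and phagocytosis list 8 events in 5 of 36 genes.

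The share of host genes that differed in expression was near that of all genes. Of the 918 host genes, 85 (9.26%) had an adjusted p under 0.05 in the authors' deposited table, 47 higher and 38 lower after smoke. Over all genes with an adjusted p there the share was 7.69%, with 4.15% higher and 3.53% lower. The host genes were also more highly expressed, with a median room air mean of 500.1 normalised counts against 142.0 over those genes. In bulk RNA, fewer cells of a type and less RNA per cell cannot be told apart. The hosts with the lowest adjusted p in the authors' deposited table did not share a direction of acceptor use. Rsrp1, an arginine- and serine-rich nuclear protein, was lower there, its log2 fold change being -0.77 (SE 0.13), and its proximal site gave 87.1%, 76.1% and 74.5% in room air and 70%, 66.7% and 71.0% after smoke (96 nt, limma, adjusted p = 0.541). This unannotated Rsrp1 site ends in CG where acceptors end in AG. Hmga1, a chromatin architectural protein, was higher in the authors' deposited table (log2 fold change 0.90, SE 0.19), and its tandem site gave 92.3%, 92.7% and 90.4% in room air and 97.0%, 92.3% and 93.8% after smoke (limma, adjusted p = 0.623).

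Tut7, a terminal uridylyltransferase, and Cops7a, a subunit of the COP9 signalosome, differed in the authors' deposited table by -0.49 (SE 0.10) and 0.53 (SE 0.11) in log2 fold change. The Tut7 site was at 1.43%, 2.78% and 2.02% in room air and 7.69%, 0% and 0% after smoke, and the Cops7a site at 100%, 97.7% and 94.4% in room air and 100%, 100% and 95% after smoke, both with overlap. Among events with a value in all 6 libraries, the longest distances belonged to Fli1 and Tbxas1. Fli1, an ETS transcription factor, had sites 56050 nt apart in a row that overlaps 5 genes, at 5%, 2% and 2.33% in room air and 0% after smoke (limma, adjusted p = 0.207). Tbxas1, thromboxane synthase, had sites 8870 nt apart, at 7.69%, 11.3% and 8.89% in room air and 0%, 4.35% and 3.03% after smoke (limma, adjusted p = 0.413).

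The labelled cell type was checked in the authors' deposited expression table. All 10 macrophage markers were listed, with summed group means of 74284 normalised counts in room air and 72591 after smoke. Neutrophil markers (4 of 10 listed) summed to 0.32 and 0.51, erythroid markers (1 of 7) to 0.13 and 0.29, dendritic cell markers (4 of 6) to 1.66 and 1.02, stromal markers (6 of 6) to 44.5 and 7.88 and B cell markers (5 of 8) to 146.0 and 122.6 normalised counts. Of the B cell sums Ighm, an immunoglobulin heavy chain gene, made up 139.3 and 118.5, Cd79b was at 6.06 and 4.04, and Cd79a, Ms4a1 and Ebf1 were at or near 0. Their part in the acceptor levels was not tested.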

How the data were processed

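Per the submitters' processing notes, STAR, SAMtools 1.9, bedtools 2.27.1 and DESeq2 were used with build mm10; their settings are not given in the sources used here. The authors deposited JuncBASE percent inclusion for each event and library, without read counts, so depth is unknown and no counting interval can be given, along with its p-values and corrected p-values. Their expression table holds, per the file headers, group means of size-factor-normalised counts (a signal), log2 fold changes with standard errors, a Wald score (their ratio) and p-values; the authors' score was not used. A further 6 columns of per-sample values in a table of retained introns were not used.

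Levels p, in percent, were turned into log2((p + 1)/(100 - p + 1)) and fitted with limma 3.58.1 (R 4.3.3), group as the only term, over all 10376 events, with Benjamini-Hochberg adjustment over all of them. The fit was tested on simulated data of 3055 events with 6 values and a mean level from 5% to 95%, with changes towards or past 50%. It recovered 0% of changes of 1 log2 odds, 51.5% of 2 and 85.5% of 4, with 0, 5 and 12 false calls. Events with missing values or a mean level outside those limits were not simulated, so these shares do not cover the whole main fit. Hosts, annotation and sequence came from GENCODE M21 and the authors' merged annotation. Events were named by a rule: the 8 lowest p, then, among events with a value in all 6 libraries, the 4 largest non-overlapping differences each way, list genes at 10% to 90% (at most 8, those of lowest limma p), the 4 tandem events nearest 50%, the 4 hosts of lowest expression p and the 2 longest distances, 1 per gene. Sequences, Cd36, Hnrnpk, U2af2, Sf1, Aim2, Ikbke, Sp100 and the tandem examples were added after their values were seen. The events, gene lists and tests were chosen with earlier results of these data known. The split by counted site, the test between measures and the background without retained introns were added after seeing the data.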

Additional observations from a re-analysis of the deposited data

How the results depend on the processing

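Of the alternatives that kept all libraries, 43 values kept within their limits and 26 moved. The count of called events, 0 in the main fit, was 19 (1.41%, against 2.32% of all events) with a pseudocount of 0.1, 1 (0.128%, against 0.388%) among events with 6 values, 1 (0.13%, against 0.0951%) at a mean level from 5% to 95% and 0 to 114 with 1 library left out (8.58% without smoke replicate 3, against 10.4%). The unadjusted counts of 81 lower and 21 higher became 47 lower at 5% to 95%, 11 higher at the pseudocount of 0.1 and 46 higher on the percent scale, and ran from 50 to 219 and from 11 to 71 with 1 library left out.

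Groups that did not overlap numbered 114 lower and 41 higher; this became 66 lower at 5% to 95% and 26 higher with 1 row per locus, and 8 higher both for proximal sites and for 2 acceptors. With 1 library left out the ranges were 131 to 189 lower and 58 to 92 higher. The mean difference of -0.91 points became -1.26 with 1 row per locus, -1.64 for proximal sites and -1.54 for 2 acceptors. By distance, 4 to 12 nt (0.04) became -0.29 with 1 row per locus, 0.66 at 5% to 95%, -0.96 for proximal sites and -0.67 for 2 acceptors, so its sign is not settled. Nor is that at 3 nt, where -0.083 became 0.16 for known junctions, 0.050 without room air replicate 2 and 0.14 without smoke replicate 3. At 13 to 50 nt -0.65 became -1.06, -1.33 and -1.21 for the same 3 sets without the 5% to 95% one, and -1.20 for known junctions. At 51 to 200 nt -0.41 became -0.79 for proximal sites, and over 200 nt -2.90 became -3.96 for proximal sites and -3.88 for 2 acceptors. Expression calls among hosts fell from 85 to 20 at 1.5-fold or more. The cause of these moves was not tested, apart from the smaller sets of events by construction.

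Same-numbered room air and smoke libraries did not deviate together (correlations of 0.018, -0.040 and -0.089 over 5933 events). The labels pair them by nothing but this number, and whether they shared a batch was not tested. With the replicate block 0 events were called, and 11 had an unadjusted p under 0.05 and a higher level. Read depth is unknown and may limit all levels near 0% and 100%, and smoke replicate 1 lacked more values than any other library.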
